A study of Mus musculus with 6 samples.

Results

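The imprinted genes *H19*, *Igf2*, *Meg3*, *Dlk1* and *Rasgrf1* were examined in the methylomes of 3 kinds of mouse pluripotent stem cells. They were chosen by name, because their clusters are controlled by methylation marks inherited from the father. No measured value entered the choice, although earlier results of these data were known when it was made. They are 5 of the 53843 annotated genes on chromosomes 1 to 19 and X. Their sequence, taken from the gene body through 30 kb upstream of the annotated start, held 4121 of the 21353092 CpG sites of the GRCm38 genome on these chromosomes. It was cut into 326 windows of 1 kb, of which 131 had at least 40 CpG reads in every sample and could be tested.

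Whole-genome bisulfite sequencing had been carried out on advanced pluripotent stem cells (ASCs), embryonic stem cells (ESCs) and epiblast stem cells (EpiSCs), with 2 replicates of each. ASCs had been kept in ABCL medium, which contains Activin A, BMP4, the Wnt agonist CHIR99021 and LIF. The ESCs were naive cells in 2i/LIF, and EpiSCs are primed cells of the post-implantation epiblast. All 6 samples were labelled as wild type cells of strain 129S2/SvPasCrl, the study described the lines as female, and no source used here names the line, clone or passage behind a replicate. The methods describe 129/sv females mated with reporter males of a mixed background. Each sample held between 63803799 and 74925271 CpG reads, with a mean coverage of 2.96 to 3.46 reads per CpG site, so reads were summed over windows and the methylation level of a window is the percent of its CpG reads that were methylated. Levels are averages over both parental copies and all cells of a culture, and a change in one parental copy cannot be told apart from a change in some of the cells.

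Most imprinted clusters carry their inherited methylation on the maternal copy. A few carry it on the paternal copy, where it is laid down during sperm development between genes rather than on a promoter. Upstream of *H19* the mark covers binding sites of CTCF, an insulator protein that binds the unmethylated maternal copy and keeps the enhancers from *Igf2*. Upstream of *Meg3* it governs the choice between the non-coding RNA *Meg3* on the maternal copy and the growth regulator *Dlk1* on the paternal copy, and upstream of *Rasgrf1* it lies beside a tandem repeat. After fertilisation such marks are held by ZFP57, a zinc finger protein that binds a methylated hexamer. In somatic cells a mark of this kind reads near the middle of the scale, because one copy is methylated and the other is not.

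The sequences at the centre of these marks are given first, since the measurements below rest on the CpG sites in them. The germline regions were set by their textbook distance from the annotated start. They are 2 to 4 kb upstream of *H19* (chr7:142580144-142582143, GRCm38, intergenic, 60 CpG sites), 11 to 15 kb upstream of *Meg3* (chr12:109526001-109530000, intergenic, 116 CpG sites) and 29 to 31 kb upstream of *Rasgrf1* (chr9:89878908-89880907, intergenic, 58 CpG sites). *Igf2* and *Dlk1* have no germline region of their own and share those of *H19* and *Meg3*.

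The *H19* region held 4 matches to a CTCF core, written as CCGC, then 2 free bases, then GGNGGCAG, searched on both strands. All 4 lie on the minus strand, the strand of *H19*, and 4 of the 5 matches to the ZFP57 hexamer in this region overlap one of them. Of all windows of the same length on chromosomes 1 to 19 and X, 0.0413% held a match to the core, and 1 of 1279270 held as many. The core was taken from textbook knowledge, so these shares are no test of enrichment. The 4 sites are printed below 5′ to 3′ with the core in capitals, in order of decreasing distance from *H19*, from chr7:142582014-142582067, chr7:142581770-142581823, chr7:142580744-142580797 and chr7:142580289-142580342.
H19 CTCF site 1: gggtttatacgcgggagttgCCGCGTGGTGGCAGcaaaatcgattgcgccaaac
H19 CTCF site 2: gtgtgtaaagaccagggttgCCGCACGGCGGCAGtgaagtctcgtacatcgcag
H19 CTCF site 3: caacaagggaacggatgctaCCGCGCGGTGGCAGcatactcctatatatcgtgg
H19 CTCF site 4: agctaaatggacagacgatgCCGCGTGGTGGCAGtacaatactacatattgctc

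The hexamer TGCCGC bound by ZFP57 was found 6 times in the *Rasgrf1* region and 9 times in the *Meg3* region, counted on both strands. It occurred at least once in 10.9% of windows of the length of the *Rasgrf1* region, and 0.0131% of them held 6 or more. For the length of the *Meg3* region these shares were 19.8% and, for 9 or more, 0.00500%. The hexamer itself holds a CpG, and the windows were not matched to the regions for CpG density. The letters of the CTCF core were found in neither region. All 6 hexamers of *Rasgrf1* and 5 of those of *Meg3* were clustered on the plus strand. The clusters are printed with the hexamers in capitals, from chr9:89879596-89879895 and chr12:109528291-109528449.
Rasgrf1 ZFP57 cluster: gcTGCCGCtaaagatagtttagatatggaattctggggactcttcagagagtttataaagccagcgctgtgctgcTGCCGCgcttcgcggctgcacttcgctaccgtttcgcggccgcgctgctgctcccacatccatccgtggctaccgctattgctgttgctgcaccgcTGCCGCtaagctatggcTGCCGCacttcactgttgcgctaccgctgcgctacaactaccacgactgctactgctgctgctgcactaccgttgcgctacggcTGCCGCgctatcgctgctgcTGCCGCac
Meg3 ZFP57 cluster: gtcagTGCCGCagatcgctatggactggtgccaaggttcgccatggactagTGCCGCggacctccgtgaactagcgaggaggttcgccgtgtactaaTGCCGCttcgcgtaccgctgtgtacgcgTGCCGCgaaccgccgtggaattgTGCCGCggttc

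Just downstream of the *Rasgrf1* cluster a tandem repeat with a period of 40 bp filled 1500 bp, and the unit below, at chr9:89880492-89880531 with its single CpG in capitals, occurred there in 9 exact copies. The repeat matters for what follows because it was hardly covered, with 0.485 reads per CpG site, so that almost all reads of the *Rasgrf1* region came from the side of the hexamers.
Rasgrf1 repeat unit: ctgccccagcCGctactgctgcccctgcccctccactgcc

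The first comparison asked how the 3 germline marks stood in each kind of cell. All 3 were low in ESCs, at no more than 10.3% in a replicate. In EpiSCs they were methylated, almost fully at *H19* and at an intermediate level at *Meg3* and *Rasgrf1*. In ASCs the marks of *H19* and *Meg3* were intermediate and, over each region as a whole, below those of EpiSCs. Within the *Meg3* mark ASCs were not below EpiSCs in every part. At *Rasgrf1* the replicates of ASCs disagreed.

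**Figure D1:**
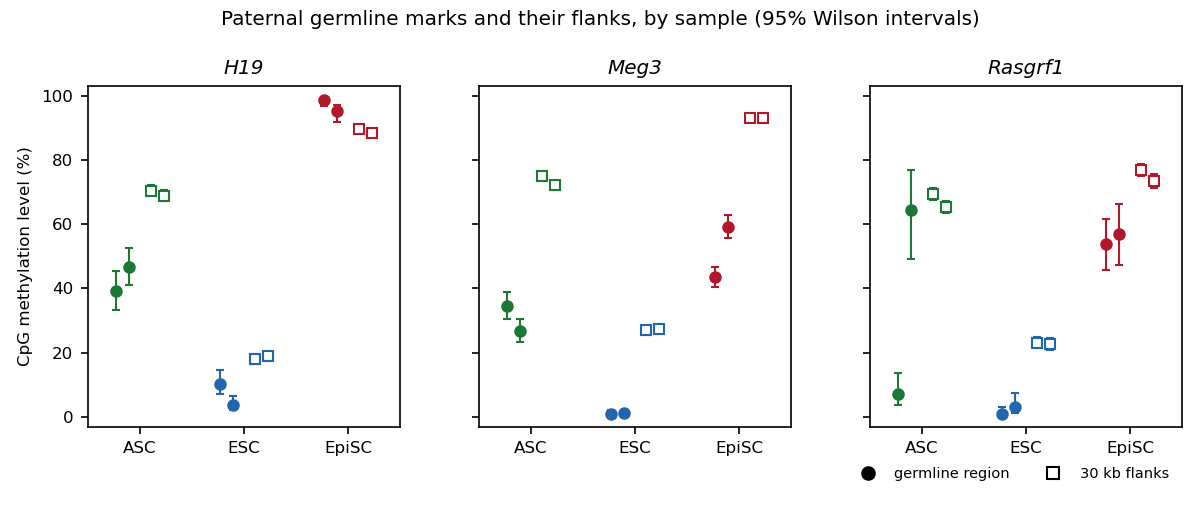
Methylation level (%, vertical axis) of each germline region (filled circles) and of the 30 kb on each side of the gene's whole interval (open squares) in every sample, grouped by cell type on the horizontal axis, with 95% Wilson intervals for counting error. Among symbols of the same kind ESCs lie lowest in each panel. The EpiSC points of *H19* lie above their flanks, and the ASC points of the *Rasgrf1* germline region lie far apart.

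The *H19* germline region was methylated at 39.1% and 46.7% in the ASC replicates, at 10.3% and 3.68% in ESCs, against 98.6% and 95.2% in EpiSCs, with at least 243 CpG reads in each sample. The 3 groups did not overlap and were ordered ESC, ASC, EpiSC. The mark was 35.9 percentage points higher in ASCs than in ESCs (SE 3.10, adjusted p = 7.37e-15, limma-moderated quasi-binomial model) and lower than in EpiSCs (difference -54.0, SE 2.91, adjusted p = 8.32e-23). EpiSCs exceeded ESCs by 89.9 points (SE 1.62, adjusted p = 4.74e-33). The model used a dispersion of 1.65 where the region's own was 6.29, so these errors are shorter than its own replicates give. No site with at least 3 reads was free of methylation in EpiSCs, where 52 of 57 such sites in replicate 1 and 39 of 49 in replicate 2 were fully methylated. In ASCs most sites were partly methylated, 38 of 44 in replicate 1 and 50 of 58 in replicate 2.

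The CTCF sites themselves were read at low depth. Over the 10 CpG sites inside the 4 cores, methylation was 51.7% and 51.2% of 29 and 41 reads in ASCs, 13.9% and 4.08% of 36 and 49 reads in ESCs, and 100% of 61 and 45 reads in EpiSCs. With 20 bp on each side of the cores included, the ASC replicates lay further apart, at 40.4% and 57.1% of 57 and 84 reads. On this scale site 3 was methylated at 90.0% and 85.7% in ASCs, whereas site 2 was at 5.88% of 17 reads in replicate 2 and had no methylated read among 5 in replicate 1, which allows a level of up to 60.0%. At site 2 ESCs were at 33.3% of 15 reads and 16.7% of 12 reads, both within the limit of ASC replicate 1, and no order of ASCs and ESCs can be read there. Site 4 was at 38.9% and 45.5% in ASCs, and site 1 at 29.2% and 71.4%. In ESCs site 3 was at 18.2% and 2.78%, and sites 1 and 4 had no methylated read among 14 to 28 per replicate, which allows levels of up to 10.7% to 21.4%. These per-site values rest on 5 to 42 reads in ASCs, CpG reads of one molecule are not independent, and no test was made between sites. In EpiSCs the lowest value of any site was 95.8%.

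**Figure D2:**
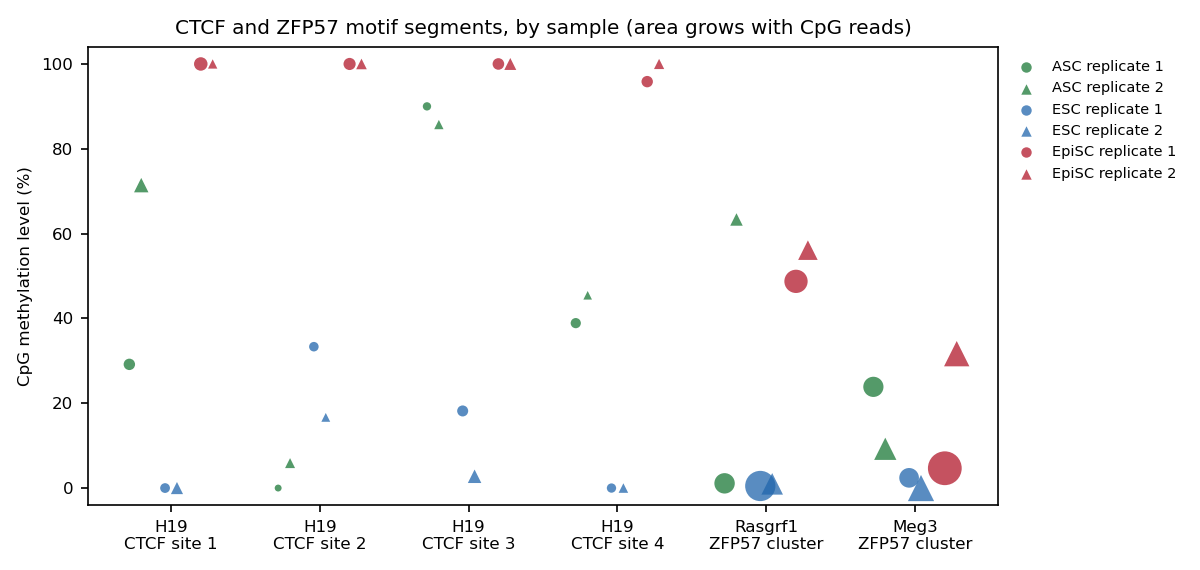
Methylation level (%, vertical axis) of the 4 CTCF segments upstream of *H19* and of the ZFP57 hexamer clusters of *Rasgrf1* and *Meg3* in every sample, with circles for replicate 1, triangles for replicate 2 and a symbol area that grows with the number of CpG reads. EpiSC samples lie at 95.8% or above at all 4 CTCF segments, and the replicates lie far apart in ASCs at the *Rasgrf1* cluster and in EpiSCs at the *Meg3* cluster.

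The low level of ASCs was local to the mark in both replicates. Windows of 500 bp within it gave 18.5% and 19.4% at 3.61 kb upstream and 60.0% and 63.8% at 2.61 kb upstream, so that windows differed by more than the replicates did, and the flanks of *H19* were at 70.5% and 68.9%. Subtracting the level of the flanks, the *H19* mark was at -31.3 and -22.2 points in ASCs, at -7.69 and -15.2 points in ESCs and at 8.88 and 6.87 points in EpiSCs. EpiSCs were the only group with the mark above these flanks, which start beyond the gene and its 30 kb upstream, by a mean of 7.87 points, or 13.4 points with flanks of 10 kb. Nearer to the mark EpiSCs were also high, with 94.2% and 95.3% over the body of *H19*, so that in replicate 2 the mark was not above it. The grouping of the 6 samples gave the largest F statistic of all 15 possible groupings (exact permutation test over these groupings, p = 0.0667, and no smaller value can be reached with them).

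The *Meg3* germline region was methylated at 34.6% and 26.7% in ASCs, at 1.02% and 1.11% in ESCs, against 43.7% and 59.3% in EpiSCs, with at least 518 CpG reads in each sample. The 3 groups did not overlap, and both ESC replicates had next to no methylation. ASCs were 29.6 points above ESCs (SE 2.10, adjusted p = 7.80e-19) and EpiSCs 50.4 points above ESCs (SE 1.81, adjusted p = 3.01e-29). The step from ASCs to EpiSCs was smaller, with a difference of -20.8 points (SE 2.70, adjusted p = 6.16e-09). It was not called without ASC replicate 2, where it was -16.9, or without EpiSC replicate 2, where it was -13.0, and with the region's own scatter between replicates in place of the moderated one its adjusted p was 0.101.

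The *Meg3* mark was not uniform, and the EpiSC replicates differed over part of it. At its upstream end, in the window centred 14.5 kb upstream of *Meg3*, EpiSCs were at 91.6% and 88.6% and ASCs at 38.0% and 24.2%, the largest deficit of ASCs among the tested 1 kb windows of *Meg3* (difference -59.0, adjusted p = 1.48e-20). Toward the gene EpiSC methylation dropped, to 37.6% and 66.9% in the next window at 13.5 kb and to 10.5% and 42.8% at 12.5 kb. The latter window holds the ZFP57 cluster printed above, where EpiSCs were at 4.67% of 257 reads and 31.7% of 142 reads and ASCs at 23.9% and 9.26%. The gap of 32.3 points between EpiSC replicates at 12.5 kb was reached by 105 of 341527 windows of the genome, whose median gap between these replicates was 2.99 points.

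At the downstream end of the same mark the order of ASCs and EpiSCs was turned. The window 11.5 kb upstream of *Meg3* (chr12:109529001-109530000, intergenic) was at 42.6% and 50% in ASCs and at 34.2% and 16.7% in EpiSCs (difference 20.9, adjusted p = 0.00586), one of 2 windows of the 5 genes that were called in this direction, as were 0.214% of all windows of the genome. Throughout, a call needs an adjusted p under 0.05 together with at least 20 points of difference. ESCs were at 4.76% or less there. By 9.25 kb upstream EpiSCs were at 89.1% and 97.4% again, while ASCs were at 28.0% and 13.7%. Over the whole *Meg3* mark the level minus that of the flanks was -40.5 and -45.3 points in ASCs, -25.9 and -26.4 in ESCs, against -49.5 and -33.7 in EpiSCs. ESCs lay apart from the other groups, whose values overlapped (exact permutation test over 15 groupings, p = 0.2, where 0.0667 is the smallest value possible).

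**Figure D3:**
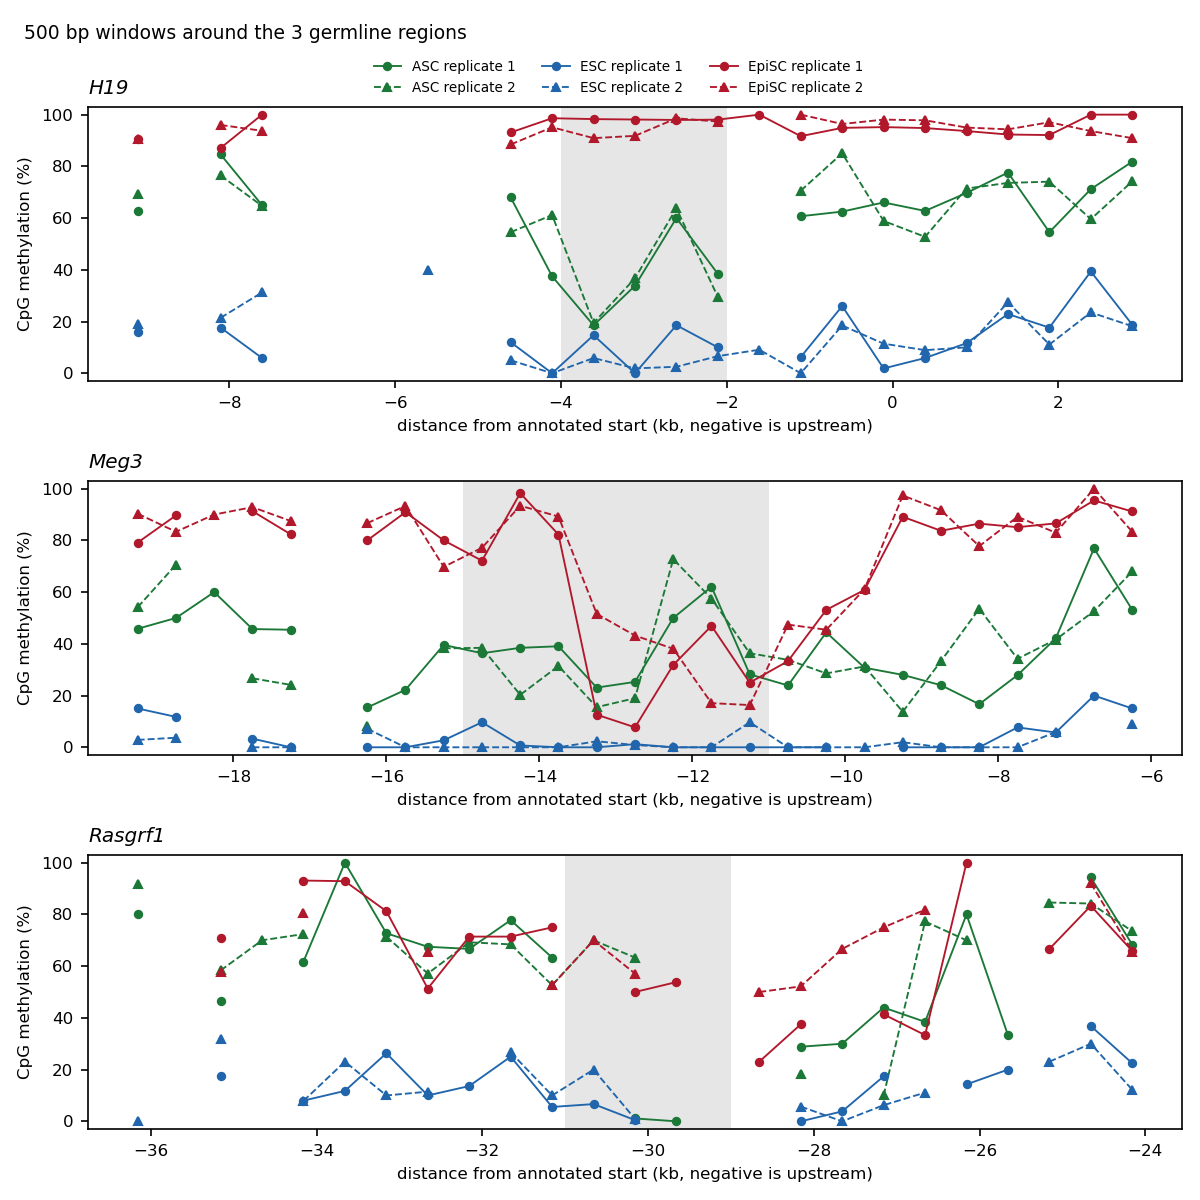
Methylation level (%, vertical axis) in 500 bp windows with at least 10 CpG reads in a sample, against distance from the annotated start (kb, horizontal axis, negative upstream), with 1 line per replicate and the germline region shaded. At *H19* EpiSCs stay at the top throughout, at *Meg3* EpiSCs fall within the shaded mark with the replicates apart, and at *Rasgrf1* ASC replicate 1 falls to 1.11% where ASC replicate 2 is at 63.3%.

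The *Rasgrf1* germline region was methylated at 7.27% in ASC replicate 1 (95% Wilson interval 3.73 to 13.7%, 110 reads) and at 64.3% in ASC replicate 2 (49.2 to 77.0%, 42 reads). ESCs were at 0.877% and 3.05%, and EpiSCs at 53.8% and 57%, with 100 to 228 reads in these samples. ASC replicate 1 thus lay near ESCs, and replicate 2 lay slightly above EpiSCs with an interval that includes both of them. A gap of 57.01 points or more between the ASC replicates was seen in 2 of 341527 windows, whose median gap was 5.22 points. These windows are 1 kb long and include sequence of this region, so the count is not independent of it. The 2 Wilson intervals did not meet, but they treat CpG reads as independent, and CpG reads of one molecule are not. In ASC replicate 2 the region had 0.724 reads per CpG site, and 2 of its 58 sites had at least 3 reads. The level of this replicate thus rests on few molecules.

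Most of these reads fell in the ZFP57 cluster, a stretch of 300 bp with 28 CpG sites. There ASC replicate 1 had a level of 1.11% of 90 reads and ASC replicate 2 a level of 63.3% of 30 reads, while ESCs were at 0.488% and 0.990% and EpiSCs at 48.7% and 56.1%. These are CpG reads, and a molecule can give many of them. In ASC replicate 2 each covered site of the cluster had 1 or 2 reads, so that few molecules carry its level. Windows of 500 bp beside the cluster had few reads, and the ASC replicates were at 66.7% of 6 reads and 70% of 10 reads 30.7 kb upstream and at 28.8% of 52 reads and 18.2% of 22 reads 28.2 kb upstream. Closer to the gene they were apart again in both directions, at 44% of 25 reads and 10% of 10 reads 27.2 kb upstream and at 38.5% of 13 reads and 77.3% of 22 reads 26.7 kb upstream. In the 30 kb flanks the ASC replicates were at 69.3% and 65.4%, and in the gene body of *Rasgrf1* at 65.2% and 67.9%. Because of this spread no level of *Rasgrf1* can be given for ASCs as a group. The mean of the ASC replicates lay 33.8 points above that of ESCs. The model, which pools the reads of a group and so gives ASC replicate 1 more weight, gave an adjusted p of 3.87e-06. It used a dispersion of 2.29 where the region's own was 19.5, and with its own dispersion the adjusted p was 0.190. Without ASC replicate 2 the difference was 5.31 points, and without ASC replicate 1 it was 62.3.

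At *Rasgrf1* ASC replicate 1 had 110 reads and replicate 2 had 42, but the mean level weighs them equally. With reads pooled, ASCs would lie more than 20 points below EpiSCs. On the mean, the *Rasgrf1* mark of ASCs differed from that of EpiSCs by -19.6 points and was not called. This difference was -48.1 without ASC replicate 2 and turned to 8.89 without ASC replicate 1. The gain from ESCs to EpiSCs, 53.4 points, did not rest on those samples. Its adjusted p in the model was 2.45e-15, and 0.0374 with the region's own dispersion. Both dispersions include the scatter between the ASC replicates. Relative to its flanks the mark was at -62.1 and -1.11 points in ASCs, at -22.2 and -19.6 in ESCs and at -23.1 and -16.5 in EpiSCs (exact permutation test over the same 15 groupings, p = 1).

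The second comparison asked how the genes under these marks were methylated. *H19*, a maternally expressed non-coding RNA, had 3 annotated starts more than 500 bp apart, and all 3 promoter windows, which reach from 1000 bp upstream of a start to 100 bp inside, followed the order ESC, ASC, EpiSC. The 5′-most window (chr7:142578043-142579143) was at 63.9% and 71.8% in ASCs, 16.03% and 16% in ESCs, against 95.03% and 97.04% in EpiSCs. It was 51.8 points higher in ASCs than in ESCs (SE 4.22, adjusted p = 4.35e-14), with a difference of -28.2 from EpiSCs (SE 3.398, adjusted p = 4.02e-10). Neighbouring windows overlap, and window 3 and most of window 2 lie inside the gene body, so these are not separate readings. The gene body behaved likewise, at 66.9% and 65.3%, 18.1% and 16.0%, and 94.2% and 95.3%. The deficit of ASCs against EpiSCs was therefore -28.6 points over the gene body where it was -54.0 over the mark. Of the 13 tested windows of *H19*, 11 were called lower in ASCs than in EpiSCs, where 53.9% of all windows of the genome were. The largest of these differences was in the window 3.36 kb upstream, inside the mark, with 29.5% and 29.4% against 98.2% and 91.5% (difference -65.4, adjusted p = 2.43e-16).

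*Igf2*, the paternally expressed insulin-like growth factor, lies beyond the *H19* mark and had windows of 3 kinds. A stretch inside the gene had low methylation in all cells. Promoter window 4 (chr7:142659389-142660489, 77 CpG sites) was at 1.55% and 1.81% in the ASC replicates, 2.77% and 0.743% in the ESC replicates and 1.64% and 3.91% in the EpiSC replicates, promoter window 3 was between 6.67% and 8.70% in all 6 samples, and the tested windows between 2.32 and 8.32 kb downstream of the 5′-most start did not exceed 11.02% in any sample. None of these was called in any contrast. At the 3′ edge of the stretch promoter window 5 (37 CpG sites) was at 15.7% and 16.9% in ASCs, 6.06% and 3.85% in ESCs, against 12.7% and 11.8% in EpiSCs, and its difference of 11.4 points between ASCs and ESCs (SE 4.36, adjusted p = 0.00484) was too small for a call.

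The sequence upstream of *Igf2*, by contrast, kept methylation in ESCs. Promoter window 1 at the 5′-most start (chr7:142666716-142667816) was at 62.5% and 45.8% in ESCs, 88.8% and 81.5% in ASCs and 93.9% and 96.2% in EpiSCs. The window of 1 kb that overlaps it and shares most of its sequence was the highest in ESCs of all tested windows of the 5 genes, with 70.9% and 52.5%, and the next windows upstream were at 52.5% and 43.9% and at 50% in both replicates. The whole 30 kb upstream of *Igf2* was at 35.1% and 32.6% in ESCs, against 17.0% and 17.3% for *H19*. Between ASCs and EpiSCs the whole 30 kb differed by -18.2 points (SE 1.56, adjusted p = 6.61e-16), and promoter window 1 by -9.91 points (SE 3.24, adjusted p = 0.00532), both under the 20 points needed for a call.

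Toward the 3′ end of *Igf2* ASCs and EpiSCs parted again. The window 11.3 kb downstream of the 5′-most start (chr7:142655001-142656000, an exon of *Igf2*) was at 20% and 17.8% in ASCs, 3.81% and 8.97% in ESCs, against 88.7% and 95.7% in EpiSCs. Its deficit in ASCs was the largest of any tested window of the 5 genes (difference -73.3, adjusted p = 5.78e-18), and its gain over ESCs, 12.5 points, did not reach 20. In promoter window 7 (chr7:142652930-142654030) ASCs were at 40.9% and 42.5%, ESCs at 22.5% and 13.0% and EpiSCs at 90.3% and 97.5% (ASC minus EpiSC -52.2, adjusted p = 1.14e-13). Promoter window 6 had under 40 reads in some samples and was not tested, with 71.9% and 61.8%, 18.8% and 29.03%, and 93.3% and 89.9%.

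*Meg3*, the non-coding RNA expressed from the maternal copy, had a promoter at which ASCs and EpiSCs had intermediate levels and ESCs almost none. Promoter window 1 (chr12:109540001-109541101) was at 30.5% and 36.4% in ASCs and 41.2% and 33.3% in EpiSCs. In ESCs it was at 0.621% in replicate 2 and had no methylated read among 179 in replicate 1, which allows a level of up to 1.68%. ASCs exceeded ESCs by 33.2 points (SE 3.47, adjusted p = 5.12e-14), and the difference between ASCs and EpiSCs was -3.79 points (SE 4.32, adjusted p = 0.504). At the next start, promoter window 2, ASCs were at 34.4% and 29.1% and EpiSCs at 22.1% and 20.6% (difference 10.4, SE 4.24, adjusted p = 0.0244), again too small for a call. Farther into the gene EpiSCs were high, and promoter windows 4, 5 and 6 were between 88.0% and 99.1% in EpiSCs and between 42.4% and 61.4% in ASCs, all called lower in ASCs.

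*Dlk1*, which encodes a Notch-related protein that restrains adipocyte differentiation and is expressed from the paternal copy, was low at the CpG-rich start of its gene. Promoter windows 2 and 3 (81 and 96 CpG sites) lay between 1.34% and 17.3% in all samples and were not called. Promoter window 1, 15 CpG sites just upstream, was at 46.9% and 49.3% in ASCs, 12% and 3.33% in ESCs, against 45.7% and 30.4% in EpiSCs, with both ASC replicates above both EpiSC replicates but no call (difference 10.1, SE 7.28, adjusted p = 0.270). The internal promoter window 4 (chr12:109458843-109459943), at an exon, stood at 27.6% and 24.9% in ASCs, 9.05% and 10.5% in ESCs, against 93.0% and 88.8% in EpiSCs. Its difference of -64.7 between ASCs and EpiSCs (SE 3.04, adjusted p = 1.45e-24) was the largest of the 18 tested promoter windows.

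*Dlk1* also held the other window called higher in ASCs than in EpiSCs. It lies 6.32 kb upstream (chr12:109446001-109447000, intergenic, 26 CpG sites) and was at 53.3% and 55.0% in ASCs, 15.5% and 12.7% in ESCs, against 25.9% and 23.1% in EpiSCs (ASC minus EpiSC 29.7, adjusted p = 4.85e-07). The window next to it, 7.32 kb upstream, was at 47.7% and 47.8% in ASCs and 36.1% and 32.3% in EpiSCs. ASCs and EpiSCs did not overlap in either window. The count of such windows over the 5 genes, 2 of 131, was 1 without ASC replicate 2 and 1 without EpiSC replicate 2.

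*Rasgrf1* encodes a Ras guanine nucleotide exchange factor expressed from the paternal copy in the newborn brain. Its promoter (chr9:89908908-89910008, 75 CpG sites) carried next to no methylation in any cell type, with no methylated read among 233 and 123 in ASCs, which allow levels of up to 1.29% and 2.44%, 1.79% and 0.866% in ESCs, against 2.13% and 2.43% in EpiSCs. The gene body was methylated at 65.2% and 67.9% in ASCs, 17.2% and 18.8% in ESCs, against 79.7% and 81.2% in EpiSCs. The difference between ASCs and EpiSCs was -13.9 points (SE 0.805) and was not called, where it was -28.6 points over the body of *H19*. The window that differed most between them lay 102.6 kb into the gene, over an exon, and was at 24.0% and 53.1% in ASCs, with the higher value again in replicate 2, and at 86.7% and 88.5% in EpiSCs (difference -49.0, adjusted p = 8.48e-08).

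**Figure D4:**
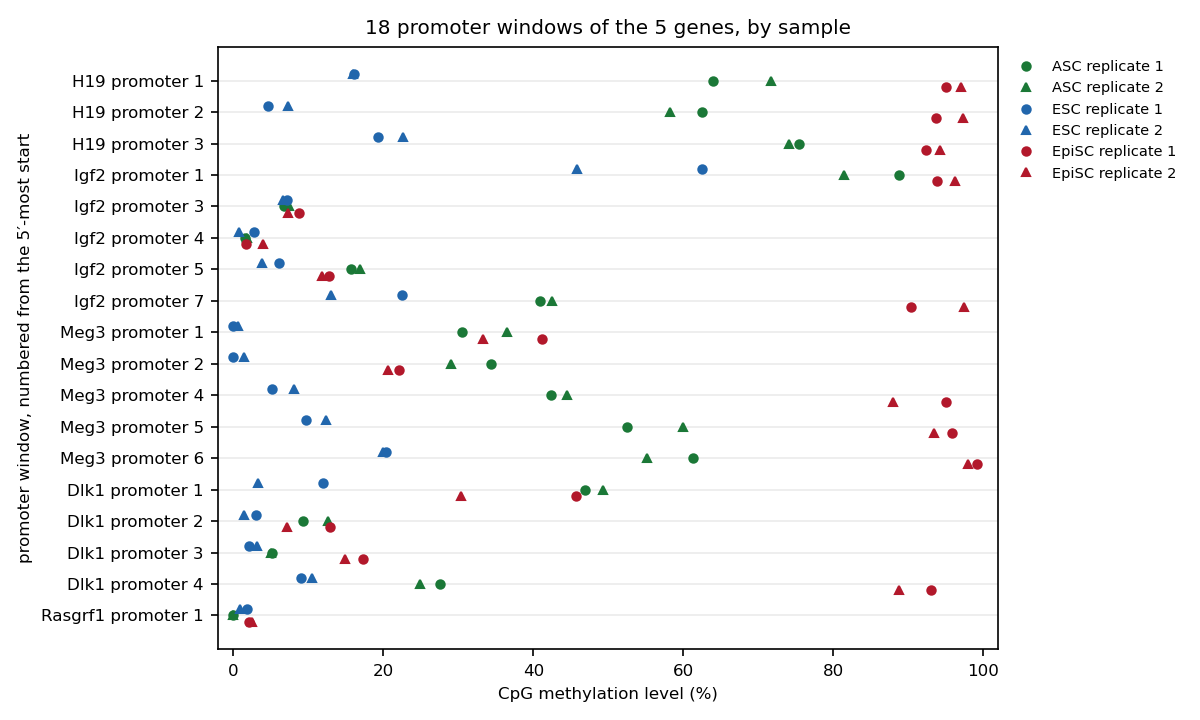
Methylation level (%, horizontal axis) of the 18 promoter windows with at least 40 CpG reads in every sample, numbered from the 5′-most start of each gene, with circles for replicate 1 and triangles for replicate 2. ESCs lie at 22.6% or below except at *Igf2* promoter 1, where they are at 62.5% and 45.8%. The EpiSC points overlap the ASC points at *Meg3* promoter 1, *Igf2* promoters 3 and 4 and *Dlk1* promoter 2. They lie below them at *Meg3* promoter 2, *Dlk1* promoter 1 and *Igf2* promoter 5.

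Counted over all promoter windows, 21 were listed, 18 could be tested, and ASCs were called higher than ESCs at 11. Some windows of one gene overlap and share CpG sites, so the counts are not of separate sequence. EpiSCs were called higher than ESCs at 12, and ASCs lower than EpiSCs at 7. Of all 1 kb windows of the genome, 83.8%, 92.9% and 53.9% were called in these contrasts, so that each count of promoter windows lay below the genome's share. Promoter windows include CpG-dense starts, and their part in these counts was not tested. Those 7 were *H19* promoters 1 and 2, *Igf2* promoter 7, *Meg3* promoters 4, 5 and 6 and *Dlk1* promoter 4. None was called higher in ASCs than in EpiSCs or lower than in ESCs, where 0.214% and 0% of all windows were.

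Over the 131 tested windows of 1 kb, ASCs were called higher than ESCs in 117, a share of 89.3% where 83.8% of all windows of the genome were called. EpiSCs were higher than ESCs in 119 windows, or 90.8% against 92.9% of all windows. In both contrasts the 5 genes lay near the genome. ASCs were lower than EpiSCs in 57 windows, or 43.5%, and here 53.9% of all windows were called. The median difference of ASCs from EpiSCs was -17.4 points over the windows of the 5 genes and -21.3 points over all windows. No window of the 5 genes was called lower in ASCs or in EpiSCs than in ESCs by the moderated model, by limma on M values or by Fisher's exact test, and at an unadjusted p under 0.05 these counts were 1 and 0. Of all 341527 windows of the genome, the moderated model called 0 lower in ASCs and 11 (0.00322%) lower in EpiSCs. The absence of such calls is thus not particular to the 5 genes.

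**Figure D5:**
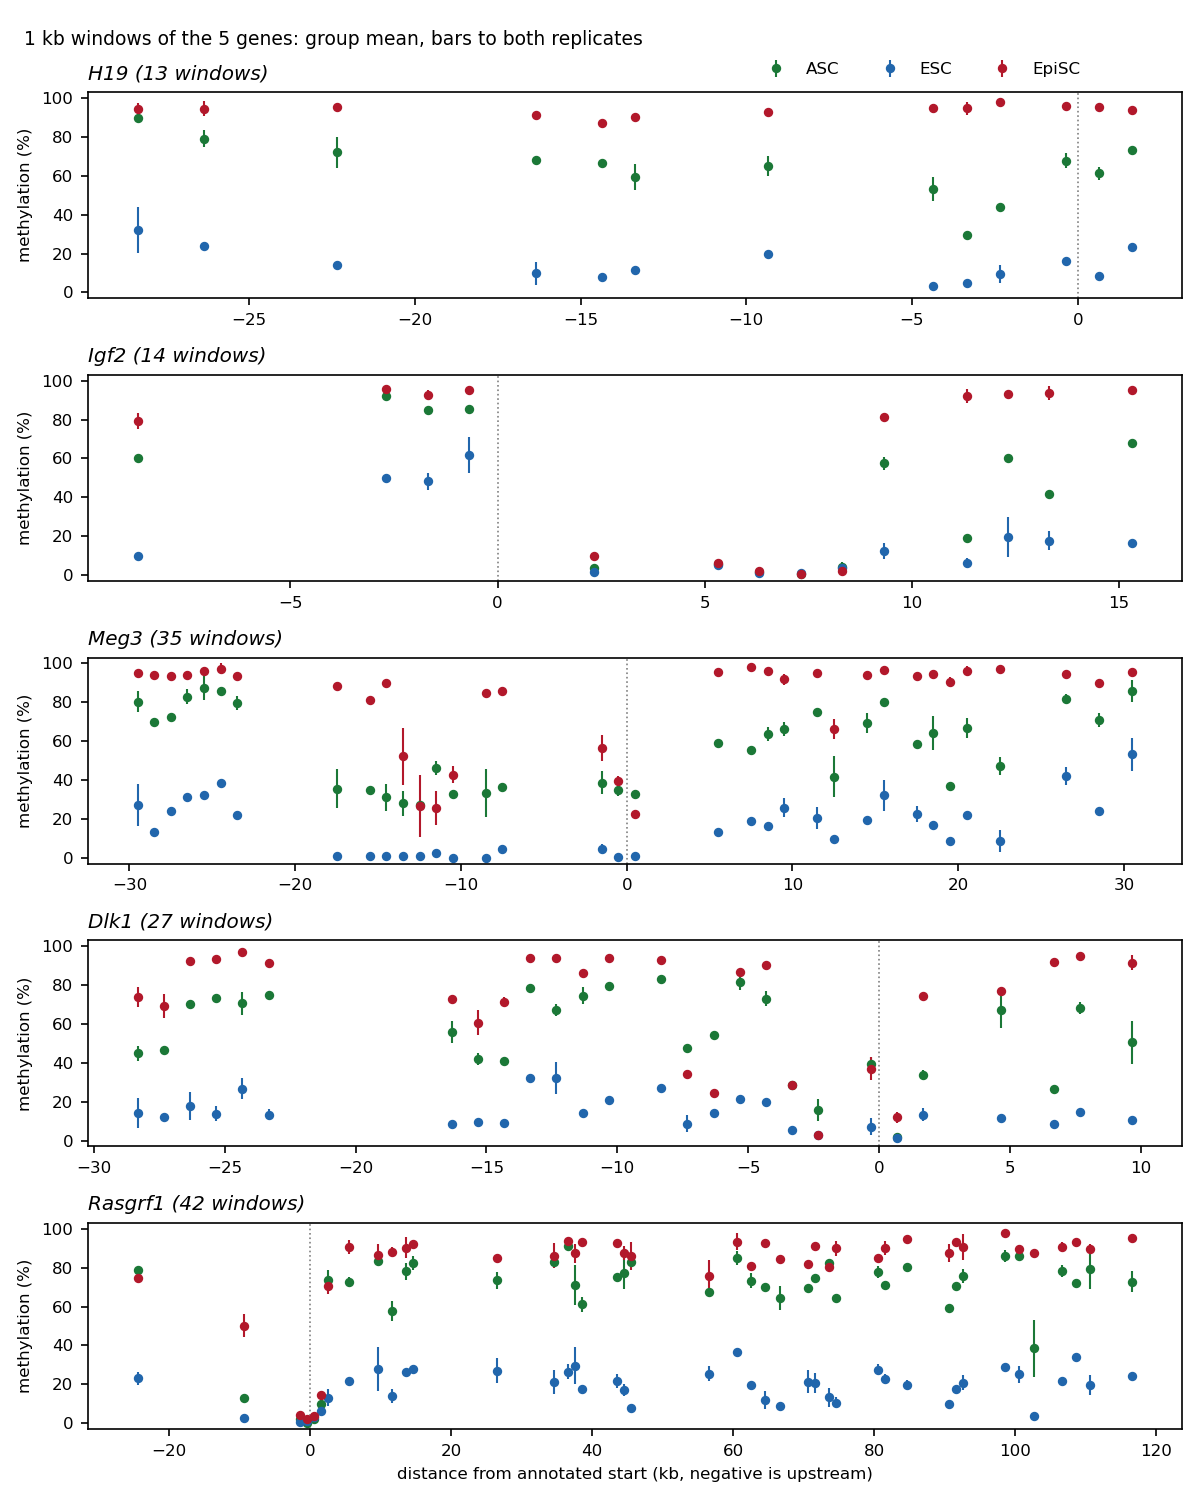
Mean methylation level (%, vertical axis) of the tested 1 kb windows of each gene against distance from the annotated start (kb, horizontal axis, dotted line at the start), with bars that reach to both replicates. The EpiSC and ASC points come down together at the starts of *Rasgrf1* and *Dlk1* and between 2.32 and 8.32 kb downstream of that of *Igf2*, and come apart upstream of *H19* and at the 3′ end of *Igf2*.

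The share called lower in ASCs than in EpiSCs differed from gene to gene. It was 11 of 13 windows at *H19* (84.6%), 20 of 35 at *Meg3* (57.1%), 11 of 27 at *Dlk1* (40.7%), 5 of 14 at *Igf2* (35.7%) and 10 of 42 at *Rasgrf1* (23.8%). *H19* lay above the share of all windows and *Rasgrf1* below it. The tested windows of *H19* and *Meg3* include their marks, but those of *Rasgrf1* do not, since its ZFP57 cluster lies just beyond the 30 kb and the windows between had too few reads, so the shares are not of like sequence. In *Rasgrf1* the median level of the windows was 70.7% and 75.8% in ASCs and 86.7% and 88.5% in EpiSCs, whereas in *H19* it was 64.6% and 70.0% against 93.0% and 94.7%. Windows of one gene share a locus and are not replicates, and no test was made between genes.

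The position of ASCs between the other groups, where 0 stands for the mean level of ESCs and 1 for that of EpiSCs, put the marks in relation to the rest. Over the 309050 windows of the genome with at least 40 points between ESCs and EpiSCs its median was 0.678. In these windows the median fell with CpG density. It was 0.688 with 11 to 20 sites, 0.631 with 21 to 30, 0.466 with 31 to 40 and 0.113 above 40. The position was 0.357 and 0.442 in the ASC replicates at the *H19* mark against 0.737 and 0.715 in the flanks of *H19*, and 0.665 and 0.509 at the *Meg3* mark against 0.727 and 0.681 in its flanks. At *Igf2* promoter 7 (20 CpG sites) it was 0.303 and 0.325 and at *Dlk1* promoter 4 (42 sites) it was 0.219 and 0.186, so that both lay nearer to ESCs. For the density of *Dlk1* promoter 4 this position is not low. At *Meg3* promoter 1 it was 0.817 and 0.978, nearer to EpiSCs, but only 36.9 points lay between ESCs and EpiSCs there. The *Rasgrf1* mark took both ends, with 0.0993 and 1.17.

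CpG density is a property along which levels differ in these genomes as a whole. In windows of up to 10 CpG sites the median level was 70.8% in ASCs and 92.6% in EpiSCs, and in windows of more than 40 it was 1.03% and 3.89%. *Igf2* promoter window 4, *Dlk1* promoter windows 2 and 3 and the *Rasgrf1* promoter hold more than 40 sites and were low in all samples. *Dlk1* promoter window 4 (42 sites) and *Meg3* promoter window 2 (41 sites) also hold more than 40 but were not low throughout. The former was at 93.0% and 88.8% in EpiSCs, and the latter at 34.4% and 29.1% in ASCs. *Igf2* promoter window 3, low in all samples, holds 17. The parts of the marks with the lowest ASC levels are not all that dense. The *H19* window with ASCs at 29.5% and 29.4% held 22 CpG sites. Windows of 21 to 30 sites had a median of 63.2% in ASCs, with the middle 50% of them between 34.9% and 75.4%. How far density bears on the values at the marks was not tested.

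Of 19 genes in or beside these clusters, listed as neighbours, 10 had a promoter with enough reads. Against ESCs, ASCs were called higher at 2 of these 10 (*Nctc1* and *Mirg*) and EpiSCs at 5, where 83.8% and 92.9% of all 1 kb windows were called. Against EpiSCs, 3 were called lower in ASCs (*Nctc1*, *Wdr25* and *Dio3*), where 53.9% of all windows were. *Nctc1*, a non-coding RNA downstream of *H19*, was at 64.7% and 64.9% in ASCs, 6.25% and 4.26% in ESCs, against 95.2% and 96.3% in EpiSCs. *Dio3*, the deiodinase at the far end of the *Dlk1* cluster, was at 2.995% and 0.345% in ASCs and at 31.6% and 22.8% in EpiSCs.

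The paternal marks were set beside 12 maternally inherited ones, taken as 1000 bp on each side of the start of genes such as *Peg3*, *Kcnq1ot1* and *Zrsr1*. At the annotated start with most CpG sites all 12 could be tested, and ESCs were exceeded by ASCs at 9 of them and by EpiSCs at 12, while ASCs fell short of EpiSCs at 8. At the 5′ end of the gene record these counts were 7, 11 and 8 of 11. The shares of all 1 kb windows called in these contrasts were again 83.8%, 92.9% and 53.9%. In ESCs all 12 were under 20%, as all 3 paternal marks were. In EpiSCs 9 of the 12 lay between 20% and 80% and 3 above 80%, where 2 and 1 of the paternal marks lay, and in ASCs 3 were under 20% and 9 between. The mark of *H19* in EpiSCs, at 98.6% and 95.2%, thus had 3 maternal marks beside it, one of them *Kcnq1ot1* at 97.1% and 97.8%, and no group difference between paternal and maternal marks was tested.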

How the data were processed

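Methylation had been measured by post-bisulfite adaptor tagging and whole-genome sequencing in 2 replicates each of ASCs, ESCs and EpiSCs. The authors trimmed the reads with Trim Galore, aligned them to GRCm38 (mm10) with Bismark 0.16.3, removed duplicates and derived CpG levels with MethPipe (no version stated). The deposited files hold, for each CpG with both strands merged, the methylated fraction and a count of covering reads, one file per sample and not pooled. The product of the deposited fraction and count differed from whole numbers by at most 0.000115, so methylated reads were recovered. The lambda spike-in was not analysed here, so unconverted cytosines were not corrected. The reference is of C57BL/6J, and base differences from 129 mice can alter single sites. Bisulfite sequencing does not tell 5-methylcytosine from 5-hydroxymethylcytosine.

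Samples held 63803799 to 74925271 CpG reads, or 2.96 to 3.46 reads per site. Reads were summed over windows of 1 kb, promoters (1000 bp before to 100 bp after each annotated start, starts within 500 bp merged), gene bodies, germline regions set by textbook distance, and flanks of 30 kb. A feature was tested with at least 40 reads in every sample, by a quasi-binomial model of all 6 samples whose dispersion was moderated with limma 3.58.1 (R 4.3.3). Printed differences are between means of replicate levels, which weigh replicates equally. P-values and SEs come from reads pooled within a group, so they weigh replicates by their reads. P-values were adjusted by Benjamini-Hochberg over all windows and regions, and a call needed an adjusted p under 0.05 and 20 points. Dispersions were smoothed towards those of all windows, which shortens the error of a region whose replicates scatter more. Germline regions minus flanks were compared by exact permutation over 15 groupings. Wilson intervals, and limits of 3 reads where none was methylated, cover counting error only. Replicates were called biological by the labels, with no statement of separate cultures or embryos. P-values thus concern these samples only, and their dispersion comes mostly from all windows (prior df 59.2) rather than from a region's own replicates. The scripts were tested on simulated data. Python 3.11.15, numpy 2.4.6 and scipy 1.17.1 were used.

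The genes, lists and tests were chosen with earlier results of these data known. Named windows are, in each gene, the tested window highest in ESCs and those with the largest and smallest ASC minus EpiSC difference, and other windows named were picked after their values were seen. Alternatives covered the minimum of reads, window size, region boundaries, flanks, the model, the call rule, a replicate block and leaving out each sample.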

Additional observations from a re-analysis of the deposited data

How the results depend on the processing

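The 9 differences of the germline regions kept their direction under every alternative run except the *Rasgrf1* difference between ASCs and EpiSCs, which turned to 8.89 points without ASC replicate 1 (adjusted p = 0.369, limma-moderated model) and was -48.1 without ASC replicate 2, where it was called. With no minimum difference it was called at -19.6. The *Rasgrf1* difference between ASCs and ESCs ran from 5.31 without ASC replicate 2, where it was not called, to 62.3 without ASC replicate 1. The *Meg3* difference between ASCs and EpiSCs ran from -28.6 to -13.0 when a sample was left out, and was not called without ASC replicate 2 or EpiSC replicate 2. In an alternative chosen after seeing the data, each region's own dispersion replaced the moderated one, and 2 calls were lost, *Meg3* between ASCs and EpiSCs (-20.8, adjusted p = 0.101) and *Rasgrf1* between ASCs and ESCs (33.8, adjusted p = 0.190). The maternal marks at the start with most CpG sites were also added after seeing the data. The cause of these changes was not tested.

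Counts of called windows moved with the number that could be tested. Neither that number nor the share of all windows called is given for these settings. The counts therefore do not show whether the 5 genes differ from the genome there. Higher in ASCs against ESCs were 204 with at least 20 reads, 15 with at least 100 reads, 47 with sites of at least 5 reads and 59 windows of 500 bp, and for EpiSCs against ESCs these counts were 207, 15, 47 and 61. Lower in ASCs than EpiSCs were 100, 10, 22 and 31, and 91 with no minimum difference. Higher in ASCs than EpiSCs was 1 window with at least 100 reads, with sites of at least 5 reads, by limma on M values and in windows of 2000 bp, 5 with no minimum difference, and 1 to 2 when a sample was left out. With no minimum difference 1 window was lower in ASCs than ESCs. The *H19* mark in EpiSCs stood 13.4 points above flanks of 10 kb. Against its flanks *Meg3* was at -39.5 in ASCs with 100 kb, and in ESCs at -28.6 with 10 kb, -24.8 with 100 kb and -27.0 with sites of at least 5 reads, and *Rasgrf1* in ESCs was at -17.7 with 10 kb and -17.1 with 100 kb. With at least 100 reads, with sites of at least 5 reads and with boundaries 500 bp inward, *Rasgrf1* had too few reads to be tested. With boundaries 500 bp inward the ASC replicates were at 1.01% of 99 reads and 57.6% of 33 reads.

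With the replicate block, the *H19* difference between ASCs and ESCs was 35.9 points (adjusted p = 1.65e-08, limma-moderated model), and no call of a germline region and no count of windows changed. Same-numbered samples did not deviate together (correlations of 0.000366, -0.00173 and 0.00161 over 341527 windows), so the numbers were not taken as pairs.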
